A study of Mus musculus with 6 samples.

Results

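MHC class I molecules carry short peptides made inside a cell to its surface, where CD8 T cells read them and natural killer cells register their loss. The 10 genes described here make that display possible: the heavy chains H2-K1 and H2-D1, the light chain B2m, the peptide transporter Tap1 and Tap2, the loading factor Tapbp, the immunoproteasome subunits Psmb8, Psmb9 and Psmb10, and the transactivator Nlrc5. They were chosen by symbol, and all 10 were found among the 20570 gene symbols shared by the 6 count tables and passed the filter on low counts. Resting hepatocytes are known for low class I display, and interferon raises the pathway in most liver cells.

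The cells were mouse liver progenitor-like cells (LPCs), proliferating epithelial cells grown from adult liver of C57BL/6 mice aged 6 to 8 weeks, in 3 groups of 2 libraries. All groups were expanded in the same Transition and Expansion Medium (TEM). The Hep_LPCs were grown from hepatocytes of ROSA26tdTomato mice given AAV8-TBG-Cre, a virus whose TBG promoter drives Cre in hepatocytes. NPC_LPCs were grown from AlbCreERT/R26GFP mice, out of their non-parenchymal cells, a fraction that holds the liver's cells apart from hepatocytes. Bec_LPCs were grown from intrahepatic bile duct pieces of WT mice in matrigel, passaged 1 to 2 times and sorted for Epcam. The groups therefore differ in mouse line, virus, sort and culture as well as in source, and these cannot be told apart. No label tells if the 2 replicates of a group came from separate cultures or animals. The p-values therefore measure the spread between these libraries, which may be technical, although the Hep_LPCs libraries differed in a Y-linked gene (below).

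Total counts were 17575998 to 22985844 reads per library. Replicates lay much closer in Bec_LPCs than in the other groups, where chi-square over genes, divided by its degrees of freedom, was 5.64 against 110 in NPC_LPCs and 91.4 in Hep_LPCs. The Y-linked gene Ddx3y had 1 read in Hep_LPCs replicate 2 and 60.4 to 102 CPM (counts per 1000000 reads, on TMM-scaled library sizes) in the other 5 libraries. The Hep_LPCs replicates thus differed in a Y-linked transcript, and whether their source animals differed in sex was not tested. Epcam, which the Bec_LPCs sort used, was at 6 and 31 reads in Hep_LPCs and 2 and 12 reads in NPC_LPCs. The hepatocyte gene Alb was at 41 and 2 reads in Hep_LPCs, while the biliary keratin gene Krt19 had 2021 to 25821 reads in every library. Leukocytes carry much class I and could bring these transcripts in, so a list of 15 leukocyte markers was read beside the results. Cd3e, Cd3g, Cd8a, Ms4a1, Nkg7 and Clec4f were at 0 reads in all 6 libraries. The summed level of the list was 86.6 and 22.2 CPM in NPC_LPCs, 24.9 and 28.4 CPM in Bec_LPCs, and 26.7 and 16.1 CPM in Hep_LPCs. Cd68, a lysosomal gene of macrophages, made up 83.9 and 20.9 CPM of the NPC_LPCs sums, and the pan-leukocyte gene Ptprc had 2 and 5 reads there. Other members of the list were highest in Bec_LPCs: Lyz2, a lysozyme gene of myeloid cells, was at 12.2 and 14.4 CPM there and at most 0.635 CPM elsewhere, and Itgax had 29 and 32 reads there and at most 1 elsewhere. Both were called higher in Bec_LPCs than in NPC_LPCs (adjusted p = 0.0476 and 0.0394) and than in Hep_LPCs (adjusted p = 0.0199 and 0.0267). The part of leukocytes in the class I results was not tested. Markers of mesenchymal cells (9 genes) summed to 171 and 198 CPM in Bec_LPCs, led by Acta2, against 5.66 to 17.2 CPM in the other libraries, and their part in the Bec_LPCs results was not tested. Endothelial markers (8 genes) summed to 2.43 to 7.84 CPM. Hepatocyte markers (8 genes) summed to 257 and 265 CPM in Hep_LPCs, 128 and 105 CPM in Bec_LPCs and 29.2 and 51.4 CPM in NPC_LPCs, mostly from Hnf4a, and their part in the results was not tested either.

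Most of the genes sit together in the MHC on chromosome 17 of mm10 (GENCODE M21). Tapbp lies at 33915899 to 33929292, H2-K1 at 33996017 to 34000347 on the minus strand and H2-D1 at 35262730 to 35267499. Between them lie Psmb9 (34181987 to 34187764, minus strand), Tap1 (34187553 to 34197225), Psmb8 (34197721 to 34201454) and Tap2 (34203527 to 34216321). B2m lies apart on chromosome 2 (122147686 to 122153083), and chromosome 8 holds Nlrc5 (94434356 to 94527272) and Psmb10 (105935735 to 105938444, minus strand). Some reads could be assigned in more than 1 way. Of the 50-base words of the longest coding transcript, 14.3% in H2-D1 and 8.79% in H2-K1 also occur in other genes, mostly other class I heavy chains. Tapbp shares 24.9% of its exonic bases with another gene, Psmb8 14.7% and Tap2 14.1%, and B2m and Psmb10 share none. The strand setting of the counting is not known from the labels or headers.

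The promoters of H2-K1, H2-D1 and B2m are shown because these genes form the class I molecule itself and were each called lower in both comparisons against NPC_LPCs. Class I promoters are known for a kappa B element, read by NF-kB, and for a module that ends in a CRE core and an inverted CCAAT box, to which factors recruited by NLRC5 bind. RefSeq promoter windows (GRCm38.p6, 250 bases before to 50 bases after the start) were matched for 8 of the 10 genes, not for Tap2 and Nlrc5. Capitals mark the kappa B match (GGGANTNNC), the CRE core TGACG and the inverted CCAAT box ATTGG. In B2m the kappa B match is on the other strand and reads as GNNANTCCC here. The sequences before the start are those of H2-K1 (chr17:34000348-34000597, minus strand) and B2m (chr2:122147437-122147685, plus strand), each 5′ to 3′. All bases lie outside GENCODE exons, and the B2m stretch lies in an intron of Patl2, a gene on the other strand.
H2-K1: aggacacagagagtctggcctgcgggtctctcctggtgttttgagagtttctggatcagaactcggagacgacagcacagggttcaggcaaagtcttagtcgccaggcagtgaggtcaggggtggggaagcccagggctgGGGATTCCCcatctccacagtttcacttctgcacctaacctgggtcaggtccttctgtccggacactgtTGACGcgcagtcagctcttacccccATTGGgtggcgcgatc
B2m: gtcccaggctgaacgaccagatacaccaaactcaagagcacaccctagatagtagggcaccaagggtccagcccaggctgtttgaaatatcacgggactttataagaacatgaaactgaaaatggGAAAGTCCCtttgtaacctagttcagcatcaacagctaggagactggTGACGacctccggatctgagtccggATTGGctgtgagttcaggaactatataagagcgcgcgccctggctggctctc

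The CRE core and the inverted CCAAT box stood at 1 spacing in 3 genes, with ATTGG starting 25 bases after TGACG. The 30 bases of each lie at chr17:34000359-34000388 (H2-K1, minus strand), chr17:35262993-35263022 (H2-D1, plus strand) and chr2:122147609-122147638 (B2m, plus strand). The H2-D1 stretch lies inside the first exon of a longer GENCODE transcript. Only the motif letters are in capitals.
H2-K1: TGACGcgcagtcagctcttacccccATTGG
H2-D1: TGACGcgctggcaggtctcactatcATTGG
B2m: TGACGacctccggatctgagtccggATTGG
This spacing, noticed after the sequences were read, was found in 31 of all 32841 windows (0.0944%). These include the windows of the 3 genes from which the spacing was taken. Reading both strands of the windows, CCAAT matched in 6 of the 8 genes against 37.4% of all windows, TGACG in 5 against 20.8%, and GGGANTNNC in 3 against 14.0%. GAAANNGAA, an interferon-response-like pattern held by B2m alone of the 8 genes, occurred in 8.56% of all windows. Only this spelling was searched, so a window without it may hold an interferon response element spelled otherwise. TTCNNNGAA, the GAS pattern of interferon gamma response, found in Psmb8, occurred in 8.30%. The Tap1 and Psmb9 windows overlap, and their TGACG and CCAAT matches are the same bases, so each of these counts holds 1 site that was counted for both genes. A match is a description of letters and was not tied to binding in these cells.

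**Figure D1:**
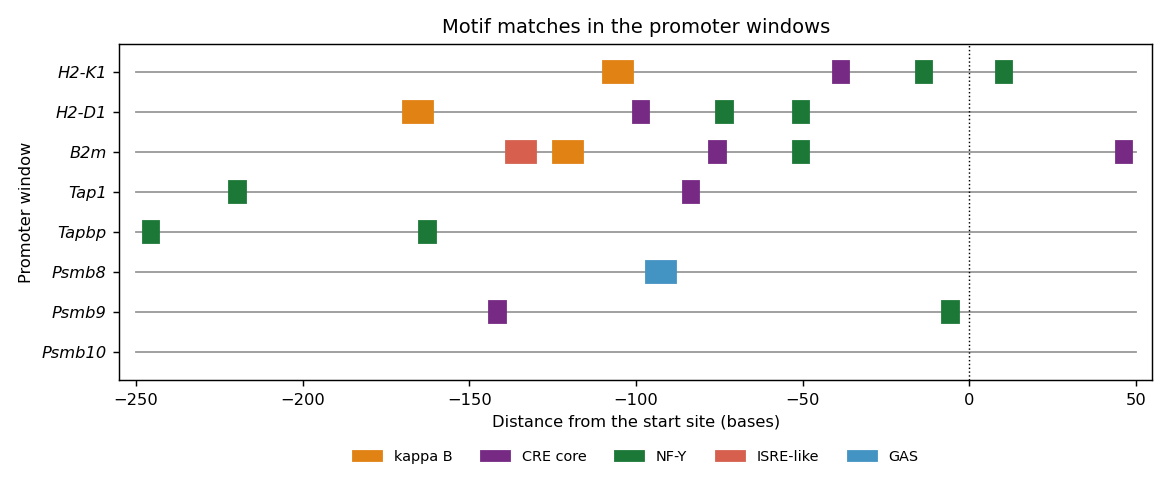
Positions of 5 motifs in RefSeq promoter windows of 8 class I pathway genes, by distance in bases from the start site; H2-K1 has 2 windows, of which 1 is drawn. H2-K1, H2-D1 and B2m each hold a kappa B match before a CRE core and an inverted CCAAT box, and Psmb10 holds none of the 5.

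NPC_LPCs held the most class I transcript and Hep_LPCs mostly the least. In 8 of the 10 genes both NPC_LPCs libraries were above both Bec_LPCs libraries, which were above both Hep_LPCs libraries; 4.17% of all 12866 genes tested were ordered in this way. B2m, lowest in Bec_LPCs, and Psmb10, for which Bec_LPCs fell within the NPC_LPCs range, were the exceptions. Levels below are CPM for replicates 1 and 2, and fold changes are log2 values ± SE from edgeR's quasi-likelihood test with Benjamini-Hochberg adjustment over all genes tested. A gene was called at an adjusted p under 0.05. In bulk RNA, fewer cells that express a gene and less transcript per cell cannot be told apart.

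**Figure D2:**
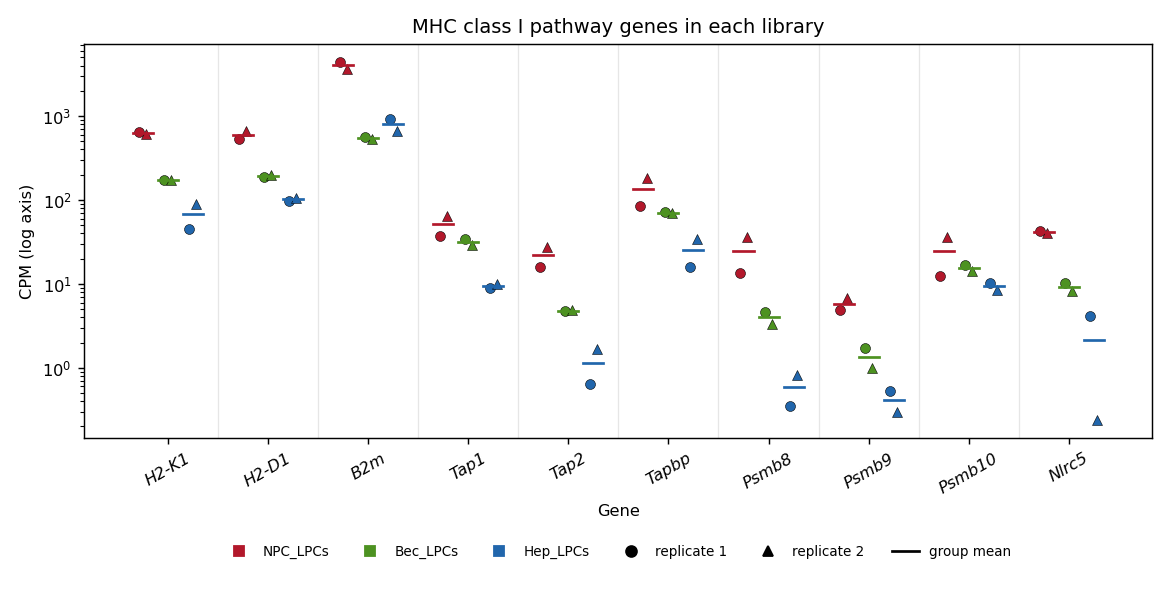
CPM on a log axis for each of the 10 genes in the 6 libraries, with colours for the groups, symbols for the replicates and bars for the group means. H2-K1 runs from 45.6 CPM in a Hep_LPCs library to 649 CPM in an NPC_LPCs library, and Nlrc5 shows the widest gap between replicates, in Hep_LPCs.

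H2-K1, the K heavy chain, was at 649 and 606 CPM in NPC_LPCs, 173 and 171 CPM in Bec_LPCs, and 45.6 and 89.0 CPM in Hep_LPCs. H2-D1, the D heavy chain, was at 532 and 658 CPM in NPC_LPCs, 188 and 196 CPM in Bec_LPCs, and 97.9 and 106 CPM in Hep_LPCs. No library of either gene overlapped another group. In Hep_LPCs against NPC_LPCs, H2-K1 was lower by -3.24 ± 0.39 (adjusted p = 0.0409) and H2-D1 by -2.56 ± 0.27 (adjusted p = 0.0324). Both were also lower in Bec_LPCs than in NPC_LPCs, by -1.87 ± 0.32 (adjusted p = 0.0254) and -1.63 ± 0.18 (adjusted p = 0.00775). Bec_LPCs in turn exceeded Hep_LPCs by 1.35 ± 0.32 for H2-K1 (adjusted p = 0.0255) and 0.91 ± 0.17 for H2-D1 (adjusted p = 0.0147).

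Because heavy chain genes share sequence, the 24 class I heavy chain rows of the tables were also summed, which makes a read's assignment among them irrelevant. The sum was 1343 and 1449 CPM in NPC_LPCs, 437 and 435 CPM in Bec_LPCs, and 166 and 235 CPM in Hep_LPCs. H2-K1 and H2-D1 made up 82.5% to 87.9% of it. The sum kept the order of the single genes: it was lower in Hep_LPCs than in NPC_LPCs by -2.82 ± 0.30 (adjusted p = 0.0329), lower in Bec_LPCs than in NPC_LPCs by -1.68 ± 0.22 (adjusted p = 0.0129), and higher in Bec_LPCs than in Hep_LPCs by 1.12 ± 0.21 (adjusted p = 0.0145). In Hep_LPCs against NPC_LPCs the sum missed the threshold without Hep_LPCs replicate 1 (-2.57, adjusted p = 0.172) or replicate 2 (-3.10, adjusted p = 0.189). Without Bec_LPCs replicate 1 or 2 its adjusted p was 0.148 and 0.150 against NPC_LPCs, and 0.115 and 0.107 against Hep_LPCs.

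B2m, the light chain that every class I heavy chain needs to reach the surface, was the most abundant of the 10 genes per length in the 4 libraries with FPKM (fragments scaled for gene length and library depth), at 5040 and 4496 FPKM in NPC_LPCs and 1137 and 781 FPKM in Hep_LPCs. In CPM it was at 4423 and 3659 in NPC_LPCs, 567 and 539.7 in Bec_LPCs, and 925 and 670.1 in Hep_LPCs. It departed from the heavy chains, with both Bec_LPCs libraries below both Hep_LPCs libraries. The change from NPC_LPCs was -2.36 ± 0.30 in Hep_LPCs (adjusted p = 0.0455) and -2.87 ± 0.24 in Bec_LPCs (adjusted p = 0.00354). The gap between Bec_LPCs and Hep_LPCs, at -0.53 ± 0.22, did not pass the test (adjusted p = 0.113).

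TAP1 and TAP2 form the transporter that pumps peptides into the endoplasmic reticulum, and tapasin, the product of Tapbp, bridges it to the empty class I molecule. Tap1 was at 37.5 and 64.7 CPM in NPC_LPCs, 34.6 and 29.4 CPM in Bec_LPCs, and 8.90 and 10.1 CPM in Hep_LPCs. Tap2 was at 15.9 and 27.8 CPM in NPC_LPCs, 4.73 and 4.84 CPM in Bec_LPCs, and 0.644 and 1.66 CPM in Hep_LPCs, where 11 and 28 reads were counted. Tapbp was at 84.8 and 184 CPM in NPC_LPCs, 72.0 and 69.3 CPM in Bec_LPCs, and 15.9 and 34.2 CPM in Hep_LPCs. All 3 genes were ordered without overlap, yet in Tap1 the lower NPC_LPCs library lay only just above the higher Bec_LPCs library. Tap1 and Tap2 were higher in Bec_LPCs than in Hep_LPCs, by 1.75 ± 0.31 (adjusted p = 0.0120) and 2.05 ± 0.53 (adjusted p = 0.0329). Tap2 was also lower in Bec_LPCs than in NPC_LPCs (-2.19 ± 0.50, adjusted p = 0.0470), whereas Tap1 was not called there (-0.68, adjusted p = 0.183). In Hep_LPCs against NPC_LPCs these genes just missed the threshold, with Tap1 at -2.45 ± 0.38 (adjusted p = 0.0570) and Tap2 at -4.26 ± 0.64 (adjusted p = 0.0560). Tapbp was called in no comparison (adjusted p = 0.0913 for Hep_LPCs and 0.240 for Bec_LPCs against NPC_LPCs, and 0.0599 for Bec_LPCs against Hep_LPCs).

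The immunoproteasome replaces the 3 catalytic subunits of the standard proteasome, Psmb5, Psmb6 and Psmb7, by Psmb8, Psmb9 and Psmb10, and so changes which peptides are cut. Psmb8 was at 13.5 and 36.0 CPM in NPC_LPCs, 4.68 and 3.34 CPM in Bec_LPCs, and 0.351 and 0.831 CPM in Hep_LPCs. The Hep_LPCs values rest on 6 and 14 reads, with exact 95% Poisson intervals of 0.129 to 0.764 and 0.454 to 1.39 CPM that cover counting error only. Psmb8 fell by 5.40 ± 0.76 in Hep_LPCs against NPC_LPCs, just inside the threshold (adjusted p = 0.0498). At nearly the same fold it missed the threshold with DESeq2 size factors (adjusted p = 0.0508), library size alone (0.0548) or the 50 highest genes left out (0.0519), which leaves 3 of the 10 genes called. It also missed it by limma-voom (0.104), on FPKM with no filter on low values (0.139), and without NPC_LPCs replicate 2 (0.0668), Hep_LPCs replicate 1 (0.208) or replicate 2 (0.204). It was lower in Bec_LPCs than in NPC_LPCs (-2.62 ± 0.60, adjusted p = 0.0470) and higher in Bec_LPCs than in Hep_LPCs (2.75 ± 0.67, adjusted p = 0.0274). Psmb9 followed the same order without a call, at 4.85 and 6.76 CPM in NPC_LPCs, 1.73 and 0.986 CPM in Bec_LPCs, and 0.527 and 0.297 CPM (9 and 5 reads) in Hep_LPCs. Its adjusted p was 0.0755 for Hep_LPCs and 0.0645 for Bec_LPCs against NPC_LPCs, and 0.0720 for Bec_LPCs against Hep_LPCs. Psmb10 had the smallest fold changes of the 10 genes against NPC_LPCs, at 12.4 and 36.6 CPM in NPC_LPCs, 16.6 and 14.2 CPM in Bec_LPCs, and 10.4 and 8.48 CPM in Hep_LPCs, and passed no test. Its difference between Bec_LPCs and NPC_LPCs turned from -0.67 (adjusted p = 0.406) to 0.32 (adjusted p = 0.486) without NPC_LPCs replicate 2.

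The standard subunits did not share this order. In CPM, Psmb5 was at 38.1 and 44.0 in NPC_LPCs, 62.5 and 61.4 in Bec_LPCs, and 27.7 and 56.5 in Hep_LPCs. Of the 3, only Psmb7 in Bec_LPCs against Hep_LPCs was called (-0.83 ± 0.16, adjusted p = 0.0144). In that comparison 17.2% of all genes were called lower. Per length, Psmb8 made up 16.5% and 32.2% of the summed FPKM of Psmb8 and Psmb5 in NPC_LPCs, and 0.412% and 0.918% in Hep_LPCs. For Psmb9 with Psmb6 the shares were 6.20% and 5.30% in NPC_LPCs, and 0.611% and 0.294% in Hep_LPCs. For Psmb10 with Psmb7 they were 10.8% and 21.3%, and 6.40% and 4.48%. All 3 shares were thus higher in both NPC_LPCs libraries than in either Hep_LPCs library. The Bec_LPCs tables hold counts alone, so for them reads are set against reads: Psmb8 had 7.49 and 5.44 reads for every 100 reads of Psmb5 in Bec_LPCs, against 35.3 and 81.8 in NPC_LPCs and 1.27 and 1.47 in Hep_LPCs. For Psmb10 against Psmb7 the Bec_LPCs values (23.1 and 19.8) lay between the NPC_LPCs replicates (17.1 and 43.1) and above Hep_LPCs (7.98 and 6.68).

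**Figure D3:**
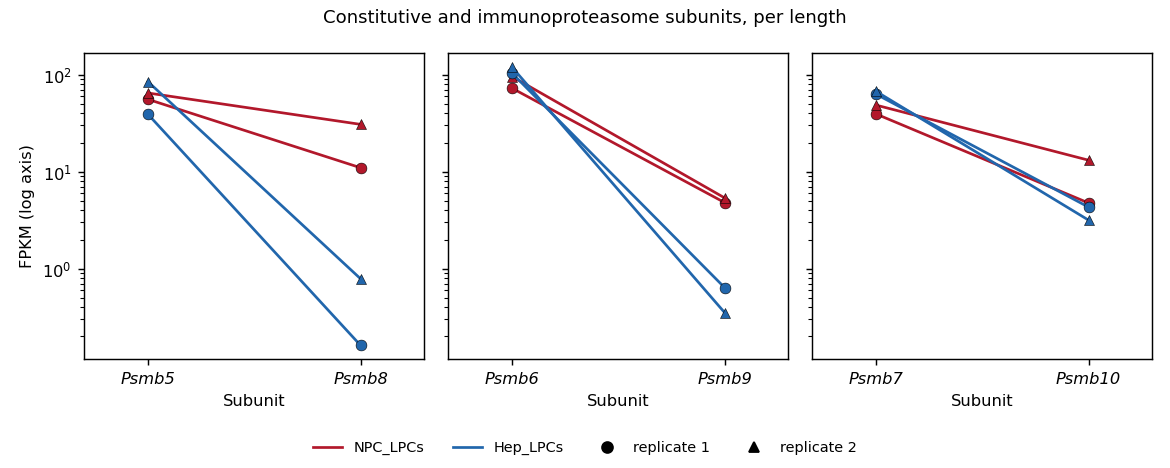
FPKM on a log axis of each standard proteasome subunit (left) and its immunoproteasome counterpart (right) in the 2 NPC_LPCs and 2 Hep_LPCs libraries; lines join the pair within a library. Psmb8 drops to 0.162 and 0.786 FPKM in Hep_LPCs while Psmb5 stays at 39.1 and 84.8 FPKM.

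Nlrc5, which encodes the transactivator that drives class I genes, was at 43.2 and 39.9 CPM in NPC_LPCs, 10.2 and 8.15 CPM in Bec_LPCs, and 4.10 and 0.237 CPM in Hep_LPCs. The Hep_LPCs replicates, with 70 and 4 reads, differed 17.3-fold, and the 95% Poisson interval of the 4 reads ends at 0.608 CPM. The groups did not overlap, but no comparison was called. The log2 differences were -4.27 ± 1.15 for Hep_LPCs against NPC_LPCs (adjusted p = 0.137), -2.18 ± 0.91 for Bec_LPCs against NPC_LPCs (adjusted p = 0.167) and 2.07 ± 0.95 for Bec_LPCs against Hep_LPCs (adjusted p = 0.139).

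As a group, 4 of the 10 genes were called lower in Hep_LPCs than in NPC_LPCs, against 0.446% of all 12331 genes tested. All 10 were lower in both Hep_LPCs libraries than in either NPC_LPCs library, against 27.7% of genes, all 10 had an unadjusted p under 0.05 (22.2% of genes), and the median log2 fold change was -2.90 (-0.0030 over all genes). Against NPC_LPCs, 5 of the 10 were called lower in Bec_LPCs (6.45% of 12866 genes), 9 did not overlap (33.0%), and the median was -1.98 (0.01 over all genes). Both comparisons share the NPC_LPCs libraries. The first was fitted in 4 libraries and the second in all 6, so their counts of called genes are not like for like. Bec_LPCs exceeded Hep_LPCs with 5 of 10 genes called (16.1%), 9 without overlap (40.8%), 1 lower without overlap (36.8%) and a median of 1.60 (0.03 over all genes). These counts rested on single libraries. In Hep_LPCs against NPC_LPCs, 0 genes were called without Hep_LPCs replicate 1 or replicate 2 (9 in each case at an unadjusted p under 0.05), 7 without NPC_LPCs replicate 1 and 3 without NPC_LPCs replicate 2. By DESeq2's Wald test 9 were called and by limma-voom 0. In Bec_LPCs against NPC_LPCs, 1 gene was called without either Bec_LPCs replicate, 3 without NPC_LPCs replicate 1 and 2 without NPC_LPCs replicate 2. In Bec_LPCs against Hep_LPCs, 0 were called without Bec_LPCs replicate 1 or replicate 2 (5 and 7 at an unadjusted p under 0.05) and 3 without Hep_LPCs replicate 1.

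**Figure D4:**
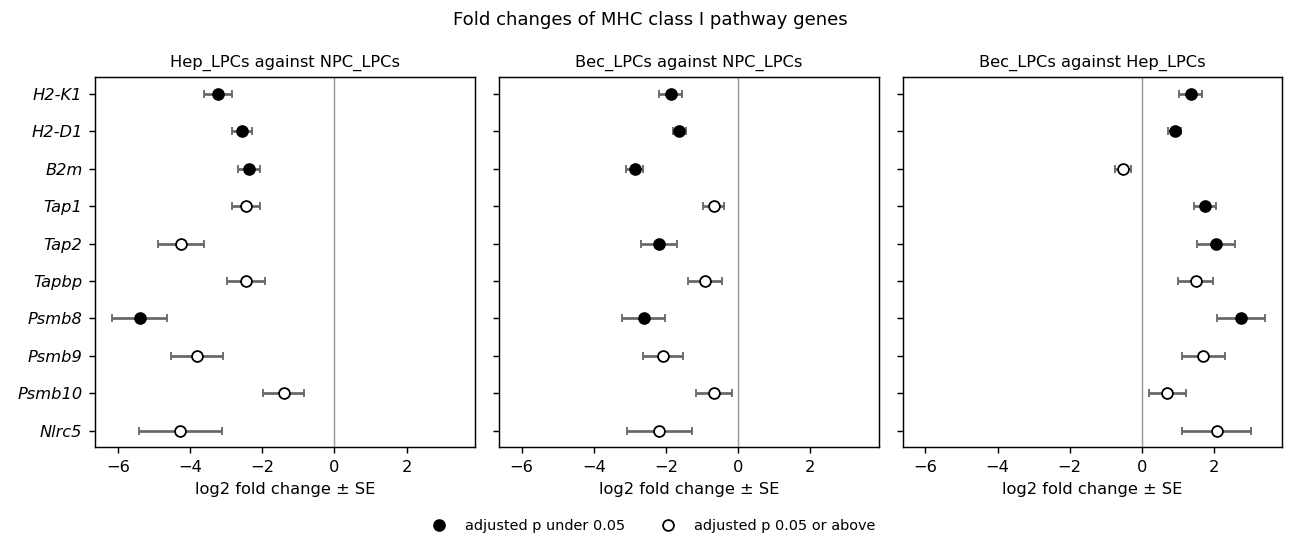
Log2 fold changes ± SE of the 10 genes in the 3 comparisons; filled points have an adjusted p under 0.05. All 10 points lie below 0 in both comparisons against NPC_LPCs, and B2m alone lies below 0 in Bec_LPCs against Hep_LPCs.

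The heavy chains beyond K and D, the class Ib molecules, were read in 1 list with the class I-like genes Cd1d1, Mr1, Fcgrt, Hfe and Procr. This mixed list followed no single order over the 3 groups. Of the listed genes tested, 1 of 11 was called lower in Hep_LPCs than in NPC_LPCs (0.446% of all genes, median -1.57). All 11 had a negative fold change there (6188 of all 12331 genes), 8 of them without overlap (27.7% of genes). In Bec_LPCs against NPC_LPCs 5 were positive and 7 negative. In Bec_LPCs 2 of 12 were lower than in NPC_LPCs (6.45%; median -0.74), and 3 of 12 were higher than in Hep_LPCs (16.1%; median 1.26). H2-Q4, at 86.1 and 67.2 CPM in NPC_LPCs, 4.73 and 5.19 CPM in Bec_LPCs, and 1.76 and 2.55 CPM in Hep_LPCs, was called in all 3, with its largest fall in Hep_LPCs (-5.17 ± 0.36, adjusted p = 0.0170). H2-Q7 fell in Bec_LPCs from 14.8 and 2.34 CPM to 7 and 6 reads (-4.92 ± 1.06, adjusted p = 0.0425). It also had only 2 and 5 reads in Hep_LPCs, without a call against NPC_LPCs (-5.34, adjusted p = 0.0895). H2-T23, which encodes the Qa-1 ligand of the natural killer receptor NKG2A, was called in no comparison, at 3.35 and 33.3 CPM in NPC_LPCs, 24.1 and 20.3 CPM in Bec_LPCs, and 5.91 and 11.7 CPM in Hep_LPCs. H2-T24 was at 10.1 and 10.6 CPM in Bec_LPCs and 0 reads in both Hep_LPCs libraries, which makes it at least 58.7-fold higher in Bec_LPCs if each Hep_LPCs library is given a floor of 3 reads. Cd1d1, which presents lipids, was higher in Bec_LPCs than in Hep_LPCs (1.87 ± 0.33, adjusted p = 0.0122). H2-Q10, a secreted class I molecule of adult liver named after its values were seen, had 0 to 3 reads per library. Class II genes were nearly absent: the 11 genes of that list summed to 37 to 123 reads per library, and their master regulator Ciita had at most 6. The filter on low counts left 1 of them to test in Hep_LPCs against NPC_LPCs (H2-DMa) and 2 in each Bec_LPCs comparison (H2-DMa and H2-DMb1), of which none was called. So few tests say little about the class II list.

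Other genes of peptide loading include chaperones, trimming enzymes and parts of the import channel. Of 14 tested, none was called in Hep_LPCs against NPC_LPCs (median -0.45). Of these, 13 had a negative fold change there (6188 of all 12331 genes), and 10 were lower without overlap (27.7%). Only 43 of all 12331 genes were called higher there and 55 lower, so the lack of a call says little about a short list. In Bec_LPCs 2 of the 14 were higher (4.89% of all genes) and 1 lower (6.45%) than in NPC_LPCs (median -0.35). Against Hep_LPCs 3 were higher (16.1%) and 1 lower (17.2%) in Bec_LPCs (median 0.23). The chaperone gene Calr was lower in Bec_LPCs than in NPC_LPCs (-1.34 ± 0.17, adjusted p = 0.0118), and the aminopeptidase gene Lnpep was higher (1.84 ± 0.26, adjusted p = 0.0164). Against Hep_LPCs, Bec_LPCs were likewise lower in Calr (-1.09 ± 0.17, adjusted p = 0.00852) and higher in Lnpep (3.51 ± 0.28, adjusted p = 0.00183). Among 11 other core proteasome subunits, 3 were higher in Bec_LPCs than in NPC_LPCs (Psmb3, Psmb4 and Psma3, against 4.89% of all genes). None was called between Hep_LPCs and NPC_LPCs, where few of all genes were called. Of the 11, 10 had a positive fold change in Hep_LPCs against NPC_LPCs (6143 of all 12331 genes), with a median of 0.44. The 2 that were lower in Bec_LPCs than in Hep_LPCs (Psma6 and Psma4) are a share near the 17.2% of all genes. Among 7 proteasome activators and assembly factors, 2 were higher (16.1%) and 2 lower (17.2%) in Bec_LPCs than in Hep_LPCs, and none was called against NPC_LPCs. Psme2, an interferon-induced activator subunit, was at 24.8 and 45.1 CPM in NPC_LPCs, 56.7 and 50.03 CPM in Bec_LPCs, and 7.08 and 16.97 CPM in Hep_LPCs. It rose in Bec_LPCs against Hep_LPCs by 2.15 ± 0.49 (adjusted p = 0.0228).

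Interferon signalling and its targets were read beside the class I genes. Of 20 signalling genes tested, 1 was called lower in Hep_LPCs than in NPC_LPCs (0.446% of all genes; median -0.58) and 8 were lower in Bec_LPCs than in NPC_LPCs (6.45%; median -0.93). In Bec_LPCs against Hep_LPCs 5 were higher (16.1%) and 5 lower (17.2%), with a median of -0.08. Stat2, a transcription factor that type I interferon activates, was the 1 gene called lower in Hep_LPCs (-2.53 ± 0.33, adjusted p = 0.0470) and was also lower in Bec_LPCs than in NPC_LPCs (-2.90 ± 0.31, adjusted p = 0.00772). Irf1, a factor that binds class I promoters, was at 56.5 and 90.5 CPM in NPC_LPCs, 47.8 and 42.4 CPM in Bec_LPCs, and 47.9 and 48.7 CPM in Hep_LPCs, and was called nowhere. Socs3, an inhibitor of cytokine signalling, was lower in Bec_LPCs than in Hep_LPCs (-2.86 ± 0.43, adjusted p = 0.00833), and so was Jak2 (-1.64 ± 0.31, adjusted p = 0.0144). Against NPC_LPCs, Bec_LPCs were also lower in Socs3 (-2.56 ± 0.43, adjusted p = 0.0239) and Jak2 (-1.36 ± 0.31, adjusted p = 0.0462). The interferon-induced gene Isg15 was at 5.08 and 104 CPM in the 2 NPC_LPCs libraries, 1.81 and 1.37 CPM in Bec_LPCs, and 1 and 5 reads in Hep_LPCs.

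The guanylate-binding and immunity-related GTPases are induced by interferon for defence inside cells. Of 12 tested, 12 were lower in both Hep_LPCs libraries than in either NPC_LPCs library (27.7% of all genes), 1 of them called (Gbp9; 0.446% of all genes), with a median of -5.09. Of 13, 9 were lower without overlap in Bec_LPCs than in NPC_LPCs (33.0%), 4 of them called (6.45%), with a median of -2.87. Of 13, 12 were higher without overlap in Bec_LPCs than in Hep_LPCs (40.8%), 4 of them called (16.1%), with a median of 2.77. Gbp9 was at 77.8 and 198 CPM in NPC_LPCs, 38.3 and 29.8 CPM in Bec_LPCs, and 4.21 and 4.27 CPM in Hep_LPCs. It was lower in Hep_LPCs than in NPC_LPCs (-5.05 ± 0.54, adjusted p = 0.0325). Gbp6 was lower in Bec_LPCs than in NPC_LPCs (-4.88 ± 0.69, adjusted p = 0.0163), going from 17.2 and 42.0 CPM to 0.971 and 1.03 CPM. In Hep_LPCs it was as low, at 1.29 and 0.415 CPM, but not called against NPC_LPCs (-5.13, adjusted p = 0.0556).

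Factors known to bind class I promoters were read as well, in 1 list with Nfkbia, which encodes an inhibitor of NF-kB and not a promoter-binding factor. Of 13 tested, none was called between Hep_LPCs and NPC_LPCs (median -0.01), 4 were lower in Bec_LPCs than in NPC_LPCs (6.45% of all genes; median -0.55), and 5 were lower in Bec_LPCs than in Hep_LPCs (17.2%; median -0.49). Rfxank, a subunit of the factor that recruits NLRC5 to class I promoters, was at 19.0 and 13.4 CPM in NPC_LPCs, 5.91 and 6.13 CPM in Bec_LPCs, and 14.9 and 14.8 CPM in Hep_LPCs. It was lower in Bec_LPCs than in either group (-1.43 ± 0.27, adjusted p = 0.0318 against NPC_LPCs; -1.30 ± 0.27, adjusted p = 0.0185 against Hep_LPCs). Nfkbia, the NF-kB inhibitor and a target of NF-kB, was at 34.3 and 31.7 CPM in Bec_LPCs, 103 and 107 CPM in NPC_LPCs, and 290.0 and 344 CPM in Hep_LPCs. It is counted among the genes called lower in Bec_LPCs, against NPC_LPCs (-1.67 ± 0.17, adjusted p = 0.00581) and against Hep_LPCs (-3.26 ± 0.18, adjusted p = 0.000812). Among 13 ligands that immune cells read, Ulbp1, which engages the activating receptor NKG2D, was at 90.1 and 19.1 CPM in NPC_LPCs, 96.3 and 98.3 CPM in Bec_LPCs, and 3 and 2 reads in Hep_LPCs. In that list 1 gene was lower in Hep_LPCs (0.446%) and 1 in Bec_LPCs (6.45%) than in NPC_LPCs, and in Bec_LPCs against Hep_LPCs 2 were higher (16.1%) and 3 lower (17.2%).

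The genes closest in pattern to the class I set were not class I genes by name. The median centred log2 CPM of the 10 genes over the 6 libraries was taken as the profile, and 4738 other genes that varied enough were ranked by their root mean square difference from it. The 5 closest were Serpinb9c (0.24), Pde8a (0.25), Pik3cd (0.27), Sorcs1 (0.29) and Tenm3 (0.30). By the same measure H2-D1 differed from the profile by 0.27, H2-K1 by 0.31, Psmb8 by 1.00 and Nlrc5 by 1.42. Pde8a, a phosphodiesterase gene, was at 41.9 and 39.6 CPM in NPC_LPCs, 10.1 and 9.09 CPM in Bec_LPCs, and 4.62 and 5.10 CPM in Hep_LPCs. Serpinb9c had 3 reads in each Hep_LPCs library and Sorcs1 0 and 2, so their place rests on few reads. The measure describes these 6 libraries and carries no test.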

How the data were processed

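Polyadenylated RNA of 6 libraries was sequenced with a stranded kit, paired-end, as the labels' protocols state. The build was mm10 per the submitters' processing notes, which name HISAT2, HTSeq, Cufflinks, Trimmomatic and DESeq. Versions, settings and annotation: not given in the sources used here. Deposited by the authors were raw read counts per gene symbol for all libraries, and FPKM for NPC_LPCs and Hep_LPCs, per the file headers. The tables differ in layout: older symbols were updated with RefSeq synonyms, which left 20570 shared symbols (19763 as deposited) holding 95.3% to 99.4% of the reads. Rows without a name (14 in Bec_LPCs, 0.000191% and 0.000181% of reads) were left out. A counting difference between the tables cannot be told apart from a difference of Bec_LPCs.

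Groups came from the titles. Hep_LPCs and NPC_LPCs were fitted in their 4 libraries, and Bec_LPCs comparisons in all 6. The fit of all 6 shares 1 estimate of the spread over the groups, although replicates lay much closer in Bec_LPCs. The test was edgeR's quasi-likelihood test (robust, two-sided) after filterByExpr and TMM scaling, with Benjamini-Hochberg adjustment (edgeR 4.0.16, limma 3.58.1, R 4.3.3) at 0.05. The procedure was also run on simulated counts. Those had the same spread in every group, unlike these libraries, so they do not show how it behaves at unequal spread. The SE was obtained as |log2 fold change| over the root of the test's F. Log2 CPM used a prior count of 2. A floor of 3 reads was 0.127 to 0.178 CPM. FPKM was used for values per length and, with a pseudocount of 1, in an alternative. Alternatives were DESeq2 size factors and Wald test (DESeq2 1.42.0), library size alone, other filters, limma-voom, removal of the 50 highest genes, other libraries in the fit, symbols as deposited, the replicate number as a block, and each library left out. Named genes were the 10 genes, up to 4 called members of each list per comparison by adjusted p, Psmb5, Psmb6, Psmb7, Irf1, H2-T23 and the 5 genes closest in profile; of the named list members, the text gives the values of some, and 1 gene of the rule is not reported here. The genes and lists were chosen with earlier results of these data known. Protein sequences were not used here.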

Additional observations from a re-analysis of the deposited data

How the results depend on the processing

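Every direction of the 10 genes held under each setting run except 1: Psmb10 in Bec_LPCs against NPC_LPCs was 0.32 without NPC_LPCs replicate 2 and -1.29 without replicate 1. The calls held less well. For Hep_LPCs against NPC_LPCs (4 of 10 genes and 98 genes in all), 7 and 515 were called with no low-count filter, 9 and 1517 by DESeq2's Wald test, and 8 and 1274 with all 6 libraries in the fit. limma-voom called 0 and 5 (9 of 10 at an unadjusted p under 0.05) and gave the summed heavy chains -2.84 (adjusted p = 0.0679). A filter at 10 CPM called 172 genes in all. limma on log2(FPKM + 1) called 8 of the 10, with a pseudocount of 0.1 it called 7, and with no filter on low values 0 (9 at an unadjusted p under 0.05). For Bec_LPCs against NPC_LPCs (5 and 1459), library size alone called 3 of the 10, DESeq2's Wald test 2897 genes in all, and the fit of the 4 libraries compared 2491. Library size alone moved the median of all genes to 0.17 against NPC_LPCs and 0.21 against Hep_LPCs, and the share of called genes that were higher from 43.1% to 61.3% and from 48.3% to 60.9%. The cause of these changes was not tested.

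Leaving out 1 library gave 0 to 7 of the 10 genes and 0 to 361 genes in all for Hep_LPCs against NPC_LPCs, with the summed heavy chains between -3.10 and -2.57. The 0 genes came without either Hep_LPCs library (2062 and 2264 at an unadjusted p under 0.05). For Bec_LPCs against NPC_LPCs the ranges were 1 to 5, 115 to 2363, and -1.78 to -1.62. For Bec_LPCs against Hep_LPCs they were 0 to 7, 491 to 4907, and 0.89 to 1.40. The low ends came without a Bec_LPCs library; an arm with 1 library is assumed to vary like the others.

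With the replicate number as a block, 6 of the 10 genes were called in Hep_LPCs against NPC_LPCs, 3 in Bec_LPCs against NPC_LPCs (770 genes in all) and 6 in Bec_LPCs against Hep_LPCs. Samples with the same number did not deviate together (correlations of 0.08, -0.04 and -0.01), so the numbers were not taken as pairs.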
